A study of Mus musculus with 8 samples.

Results

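The genes described here are 38 genes of the cardiomyocyte: the proteins of the sarcomere, the calcium store that switches it on, and the muscle forms of energy and oxygen genes. The list was given by gene name, and 36 of the 38 had a probe with their gene symbol, out of 19057 genes on the array. Tnnt2 and Smpx have no level here and enter only the count of promoters. Each gene is represented by its probe with the highest mean non-normalized intensity over the 8 arrays.

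RNA came from 8 pools of E12.5 (embryonic day) mice of a mixed C57 background, with 1 Illumina bead array per pool. Knockout hearts lacked both PDGF receptors (Pdgfra and Pdgfrb) in the epicardium, control hearts were wild type, and both were pools of 3 hearts without the conotruncal region. Epicardial cultures had grown out of E12.5 hearts for 3 days and were kept for 2 more days after the heart was taken away, at least 3 cultures to a pool. They were a receptor knockout culture, wild type cultures given 20 ng/ml PDGF-BB 12 h or 24 h before harvest, a wild type control culture, a wild type culture that received 3 factors over the 2 days (PDGF-BB at 20 ng/ml, hTGFb1 at 10 ng/ml, bFGF at 25 ng/ml), and a wild type vehicle culture. The treatment field of the control culture also reads vehicle, and that of the knockout culture gives none; neither had a growth factor. The sources used here do not name the Cre driver.

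In heart muscle, myosin of the thick filament pulls on actin of the thin filament when calcium binds troponin, and titin, the Z-disc and the M-band hold both in register. Calcium leaves the sarcoplasmic reticulum through the ryanodine receptor and is pumped back by the ATPase encoded by Atp2a2, which phospholamban and sarcolipin restrain. In the mouse embryo some of these genes already mark a chamber: Myl2 and Myl3 the ventricles, Sln, Mybphl and, in part, Myl4 and Myl7 the atria. The epicardium is the outer layer of the heart and is not itself muscle.

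Serum response factor binds a DNA element called the CArG box and drives many muscle genes, so the RefSeq promoters (GRCm38.p6, 250 bases before to 50 after the annotated start) were searched for it on both strands, with no other motif searched. It was present in 5 of the 32 members with a promoter, Actc1, Myl3, Myl7, Ldb3 and Myom1 (15.6%), and in 1.81% of the 27025 genes of the promoter table. A match is a string of letters and not a measured site. The promoters below are those of genes that follow different courses in the arrays: Actc1 and Myl3, strong in hearts and low in cultures, Myl7, bright in both, and Myl4, which stood out in 1 culture and has no CArG box in this window. They run 5′ to 3′ on the gene's strand, with the CArG box in capitals.
Actc1 (chr2:114052826-114053125, minus strand): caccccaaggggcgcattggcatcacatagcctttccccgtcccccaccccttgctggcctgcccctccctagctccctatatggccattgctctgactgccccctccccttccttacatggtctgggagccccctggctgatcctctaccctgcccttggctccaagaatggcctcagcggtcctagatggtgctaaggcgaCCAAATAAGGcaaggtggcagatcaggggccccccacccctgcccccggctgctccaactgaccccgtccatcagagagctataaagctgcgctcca
Myl3 (chr9:110763428-110763727, plus strand): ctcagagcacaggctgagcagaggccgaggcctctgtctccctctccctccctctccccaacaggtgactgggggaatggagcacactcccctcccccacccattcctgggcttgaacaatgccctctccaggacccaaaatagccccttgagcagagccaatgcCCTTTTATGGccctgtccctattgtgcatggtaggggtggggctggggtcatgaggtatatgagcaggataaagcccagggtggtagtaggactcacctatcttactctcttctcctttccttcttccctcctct
Myl7 (chr11:5898733-5899032, minus strand): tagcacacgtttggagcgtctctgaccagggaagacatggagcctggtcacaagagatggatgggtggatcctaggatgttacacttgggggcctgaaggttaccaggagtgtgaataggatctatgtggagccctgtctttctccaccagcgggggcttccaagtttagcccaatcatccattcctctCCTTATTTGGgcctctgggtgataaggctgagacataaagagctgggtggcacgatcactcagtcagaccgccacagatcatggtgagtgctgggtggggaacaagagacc
Myl4 (chr11:104550413-104550712, plus strand): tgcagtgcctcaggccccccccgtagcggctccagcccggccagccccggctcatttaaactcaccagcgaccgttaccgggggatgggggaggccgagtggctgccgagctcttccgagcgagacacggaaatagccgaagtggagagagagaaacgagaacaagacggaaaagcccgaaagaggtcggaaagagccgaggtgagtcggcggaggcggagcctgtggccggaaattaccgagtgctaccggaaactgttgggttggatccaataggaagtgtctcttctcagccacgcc

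Levels are log2 values after background correction and quantile normalization of all 8 arrays. A probe was detected where its detection p was under 0.01, and a gene was measured in a comparison where it was detected on at least 1 of the 2 arrays. It was called higher or lower, and only then is "rose" or "fell" used, where the log2 levels were 1 or more apart and the brighter array detected it. A gene detected on 1 of the 2 arrays entered through the array where it was brighter, so counts of measured genes are descriptions, and its fold is given as a bound. Every group is 1 array, so a call describes 2 arrays and has no replicate check. The only fit with a residual degree of freedom was limma's, with the control and vehicle cultures, both wild type without growth factors and called untreated here, as a group of 2. Across arrays 32.1% to 36.8% of probes were detected. The targeted gene Pdgfra had a level of 5.80 in knockout hearts against 7.43 in control hearts, and 10.49 in the knockout culture against 11.61 in the control and 10.21 in the vehicle culture. Pdgfrb was not detected in knockout hearts and had 5.62 in control hearts, and its culture levels were 5.85 in the knockout, 6.12 in the control and 6.18 in the vehicle culture. Pdgfra thus did not set the knockout culture below both untreated cultures, and whether these probes fall inside the deleted parts is unknown, so the levels do not check the culture's label.

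**Figure D1:**
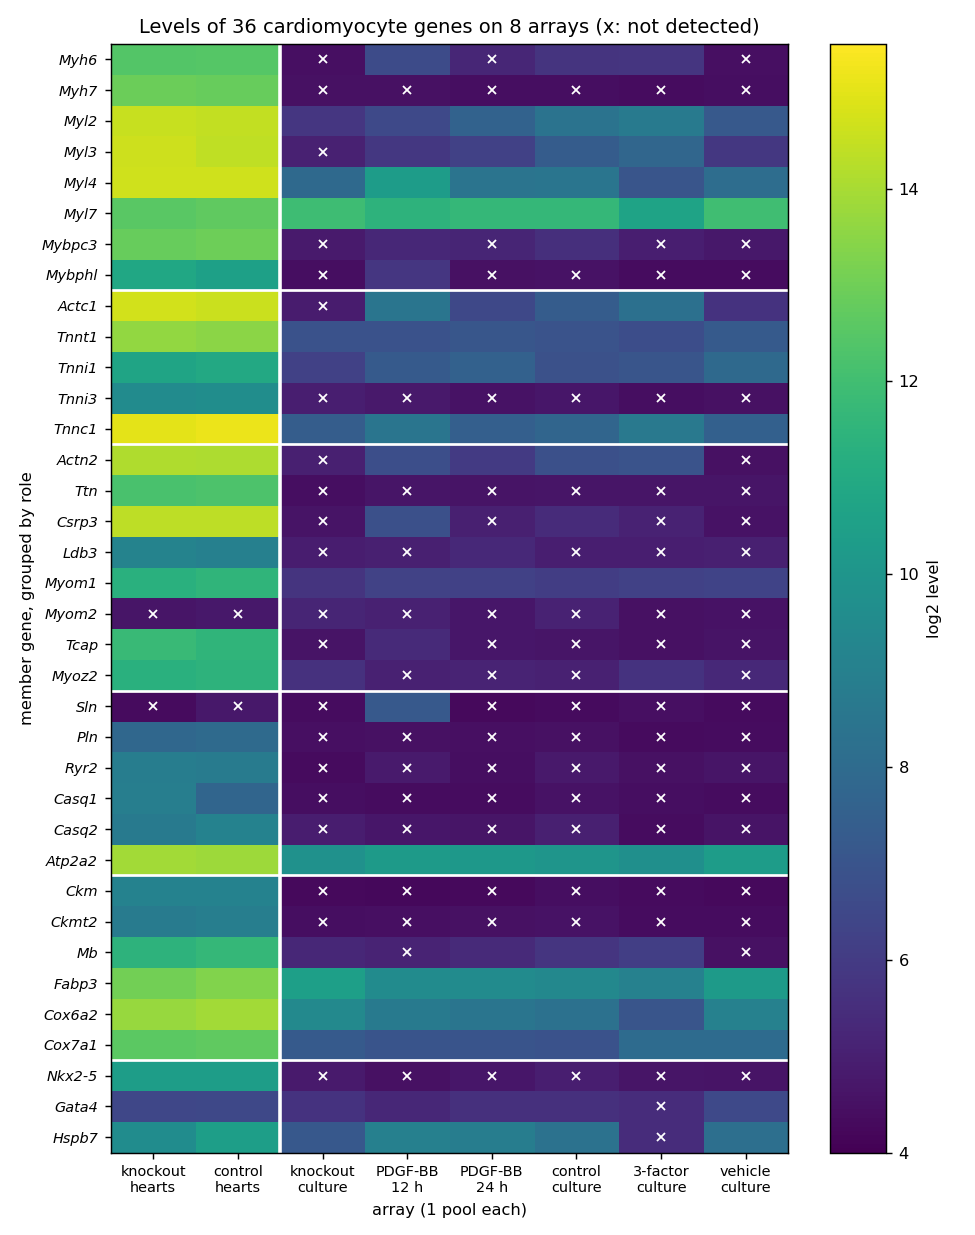
Log2 level (colour) of the 36 members with a probe, in rows grouped by role (thick filament, thin filament, Z-disc and M-band, calcium, energy, transcription factors and chaperone), on each of the 8 arrays. A white x marks a probe that was not detected; 34 members were detected in both heart pools, and 15 to 22 in each culture.

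The first comparison asks whether the heart muscle programme differed in hearts whose epicardium lacked the PDGF receptors. Members lay close to their control level: 1 of 34 measured members rose, Casq1, and 0 fell, the median being -0.04. Of the 8905 genes measured in the hearts, calls made up 0.64% (0.202% up, 0.438% down), and the median was -0.00. Members above 0 numbered 13 and members below 0 numbered 20.

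Among thick filament genes, Myh6, the fast heavy chain, had a level of 12.42 in knockout hearts and 12.47 in control hearts. Its neighbour on the chromosome, Myh7, the slow heavy chain of the embryonic ventricle, had 12.93 in knockout hearts and 12.82 in control hearts. The ventricular regulatory light chain Myl2 had 14.53 in knockout hearts and 14.42 in control hearts. All 8 thick filament genes differed by between -0.13 and 0.32, the highest being the atrial gene Mybphl with 10.85 in knockout hearts and 10.53 in control hearts.

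In the thin filament, cardiac actin Actc1 had 14.70 in knockout hearts and 14.60 in control hearts. The troponin I of the embryonic heart, Tnni1, had 10.72 in knockout hearts and 10.95 in control hearts, and the adult cardiac form Tnni3 had 9.53 in knockout hearts and 9.66 in control hearts. None of the 5 measured thin filament genes differed by more than 0.23 in either direction. The giant spring protein titin (Ttn) had 12.21 in knockout hearts and 12.27 in control hearts, and the 7 measured Z-disc and M-band genes ranged from -0.25 to 0.27.

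The calcium genes held the one call. Casq1, which encodes the calsequestrin of skeletal muscle, a calcium buffer of the sarcoplasmic reticulum, had 8.94 in knockout hearts and 7.77 in control hearts, a difference of 1.16. With the authors' processed values it was just under 1 and no longer called. The cardiac calsequestrin Casq2 went the other way, with 8.72 in knockout hearts and 9.08 in control hearts (-0.36). Pump and channel were level: Atp2a2 had 13.91 in knockout hearts and 13.83 in control hearts, and Ryr2, the release channel, had 8.88 in knockout hearts and 8.79 in control hearts. Phospholamban (Pln) had 7.84 in knockout hearts and 7.98 in control hearts. Sarcolipin (Sln) was not detected in either heart pool, nor was the M-band gene Myom2.

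The 6 energy and oxygen genes ranged from -0.27 for Fabp3, the fatty acid carrier, to 0.02 for Ckm, muscle creatine kinase, with 5 of 6 below 0. The cardiac transcription factors Nkx2-5, with 10.38 in knockout hearts and 10.41 in control hearts, and Gata4, with 6.45 in knockout hearts and 6.47 in control hearts, were level. The small heat shock protein gene Hspb7, a chaperone of the sarcomere, had 9.60 in knockout hearts and 10.47 in control hearts, the lowest member difference (-0.87) and short of a call. Of 45 further genes of the same machinery, such as Tpm1 and the natriuretic peptide genes Nppa and Nppb, 31 were measured and 0 were called, with a median of 0.11. Nppa had 14.77 in knockout hearts and 14.34 in control hearts.

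Of 7 skeletal muscle markers with a probe, Myod1, Myog, Myf5, Myf6, Chrna1 and Chrnd were not detected in either heart pool, and Chrng was detected in both. Summed linear levels in knockout and control hearts were 16589 and 16424 over 8 endothelial markers (7 detected in each), 31396 and 29158 over 7 smooth muscle markers (3 in each), and 91532 and 81204 over 7 erythroid markers (6 in each). The smooth muscle sums came mostly from Acta2, with a level of 14.89 in knockout hearts and 14.77 in control hearts. Of 5 measured fibroblast markers 1 fell, the targeted gene Pdgfra. Their part in the result was not tested. In a whole heart, fewer cells of a type and less RNA per cell cannot be told apart. Among the 100 brightest probes of each heart pool 6 were members. Troponin C (Tnnc1) had a non-normalized intensity of 25369 on the control heart array, whose highest value was 25863.

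**Figure D2:**
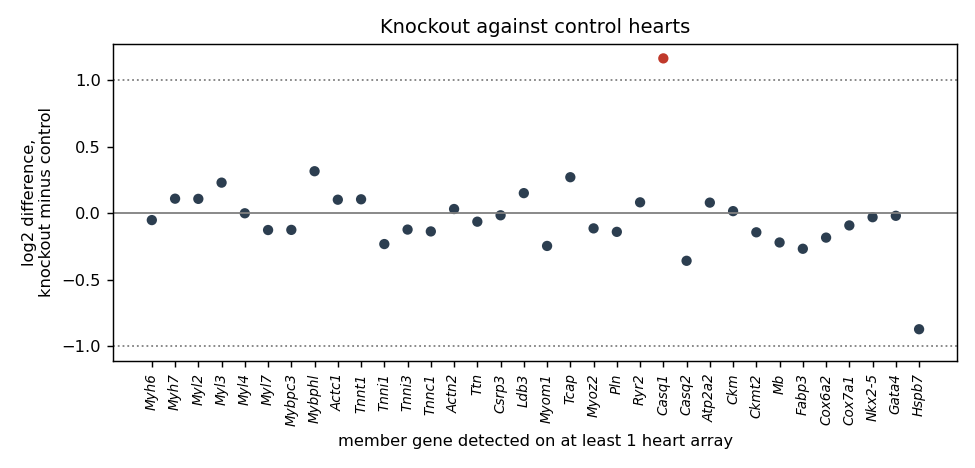
Log2 difference, knockout minus control hearts (vertical axis), for the 34 measured members (1 point each, 1 array a group). Dotted lines mark the size of a call; the red point is Casq1 at 1.16, and Hspb7 at -0.87 is the lowest.

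Cultures were set against hearts of the same genotype to ask how much heart muscle RNA was left after outgrowth. In both genotypes 32 of 34 measured members fell and 0 rose, the median being -5.56 for the knockout and -5.71 for the control genotype (-5.46 and -5.52 with bounds). Of all genes 38.4% were called in the knockout genotype, 21.0% higher and 17.4% lower, with a median of 0.04. In the control genotype 36.6% were called, 20.2% higher and 16.5% lower, with a median of 0.02. In the authors' processed values these culture and heart arrays fall in different sets, each with its own shared distribution. The vehicle culture falls in the set of the hearts, and with it the median of the members was -5.51 against control hearts.

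Sarcomere genes include those with the lowest differences in the plot of cultures against hearts. In the control culture, Myh7 was not detected and was at least 201-fold lower than in control hearts, Ttn was at least 138-fold lower, and Csrp3, a Z-disc sensor of stretch, was detected and 497-fold lower. Actc1 was below detection in the knockout culture, at least 698-fold under knockout hearts, and 151-fold lower in the control culture than in control hearts. For Myl3 these values were at least 658-fold and 131-fold.

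Medians are given by role. In the control culture the median was -6.48 for 8 thick filament genes, -6.56 for 5 thin filament genes, -6.86 for 7 Z-disc, M-band and titin genes, -5.13 for 6 energy genes and -3.85 for 5 calcium genes. The knockout culture had -7.96, -6.72, -7.18, -4.59 and -4.10 for the same 5 groups. With bounds these medians were -6.48, -6.56, -6.34, -4.78, -3.63 in the control culture and -7.36, -6.72, -6.53, -4.07, -3.62 in the knockout culture. Of the 5 calcium genes 4 were below detection in culture, so their difference is bounded by the detection limit. In the control culture Casq1 was at least 6.08-fold lower than in control hearts, and Ryr2 at least 12.3-fold.

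A pair of members stood apart. The atrial light chain Myl7 had 11.91 in the knockout culture against 12.55 in knockout hearts, and 11.68 in the control culture against 12.67 in control hearts, so both differences stayed under the size of a call. Gata4, which is also a gene of the epicardium, had 5.68 in the knockout culture against 6.45 in knockout hearts, and 5.61 in the control culture against 6.47 in control hearts. Myl7 and Gata4 each rest on 1 probe. Among called members Hspb7 had the smallest fall, with -2.41 in the knockout and -2.14 in the control culture. Where a called member had another detected probe, the first one listed had the same sign in 13 of 13 members in each genotype. The size could be much smaller, as for Myl4 (-2.29 against -6.20). For Atp2a2 further probes gave -2.63 and 0.39 in the control culture, against -3.85 for the main one.

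Limma compared the hearts with the untreated pair. Of 35 members in the fit, 31 had an adjusted p under 0.05 in knockout hearts and 32 in control hearts, where 10.1% and 9.07% of all 10719 genes did. Myl7 had a heart difference of 0.72 in knockout hearts (adjusted p = 0.302, limma) and 0.84 in control hearts (adjusted p = 0.237, limma), and Gata4 had 0.38 and 0.40 (adjusted p = 0.678 and 0.672, limma). Hspb7 had 1.34 in knockout hearts (adjusted p = 0.0910, limma). Sln, not detected in either heart pool, did not pass in either.

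Of the further genes of the machinery, 25 of 30 measured fell and 1 rose in the knockout culture, and 25 of 31 fell and 1 rose in the control culture. The one that rose in each was tropomyosin Tpm1, which smooth muscle and fibroblasts also use, by 3.14 and 3.31. Of 7 measured epicardial markers 5 rose, 1 fell (Krt19) and 1 was not called in each genotype. Their summed linear levels were 39132 in the knockout culture against 4144 in knockout hearts and 29960 in the control culture against 4224 in control hearts. Of 8 such markers 7 were detected in the knockout and 6 in the control culture.

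**Figure D3:**
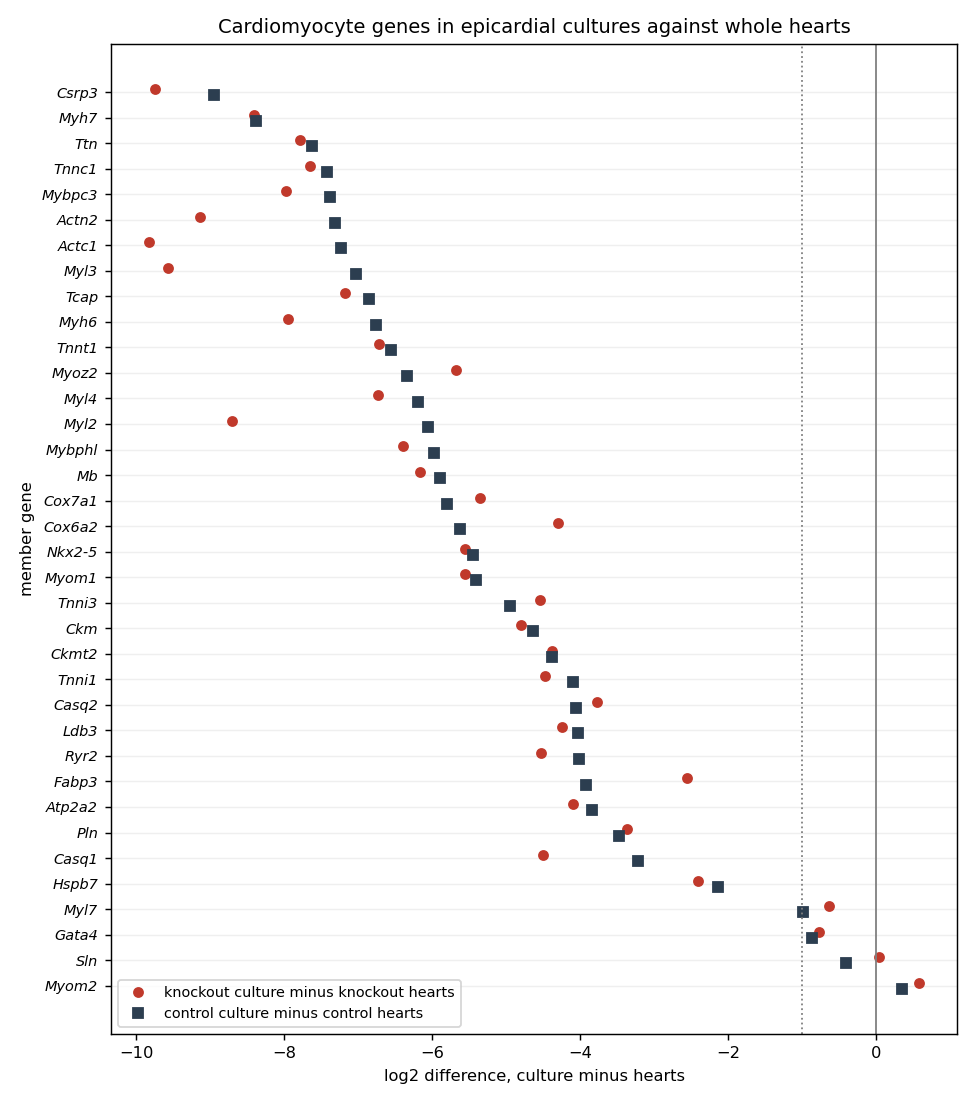
Log2 difference, culture minus hearts (horizontal axis), for the 36 members with a probe, for the knockout (red circles) and control genotype (dark squares). The dotted line marks the size of a call; Myl7 and Gata4 lie right of it, and Sln and Myom2 were not measured in either comparison.

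Within the 6 cultures the members split by how far they were detected. All 6 cultures held 11 members: Myl2, Myl4, Myl7, Tnnt1, Tnni1, Tnnc1, Atp2a2, Myom1, Fabp3, Cox6a2 and Cox7a1. In none were Myh7, Tnni3, Ttn, Pln, Ryr2, Casq1, Casq2, Ckm, Ckmt2 and Nkx2-5 detected, 10 genes that hearts held, nor was Myom2. Of all 8905 genes detected on a heart array 83.9% were detected in all 6 cultures and 5.28% in none. The remaining 14 members were detected in 1 to 5 cultures.

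Nkx2-5, a defining transcription factor of cardiomyocytes, had 10.38 in knockout hearts and 10.41 in control hearts and was at 4.50 to 4.96 in the cultures, detected in none. Titin, with 12.21 in knockout hearts and 12.27 in control hearts, was at 4.41 to 4.66 in the cultures and not detected. Cultures and hearts did not overlap for either gene, which follows from naming genes that hearts detected and no culture did. Hearts lay above all cultures for every other member too, except Gata4, Sln and Myom2. The share over all genes was not counted.

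Of the 25 members seen in a culture, 18 varied over cultures by at least 1 and 7 by less. The steady ones included Tnnt1, a slow skeletal troponin T, at 6.74 to 7.28, Myom1, an M-band protein, at 5.72 to 6.32, and Atp2a2, a pump that most cells carry, at 9.75 to 10.35. The varying ones did not share 1 order. Highest with PDGF-BB at 12 h were 7 (Actc1, Sln, Csrp3, Mybphl, Hspb7, Myh6 and Myl4). Of these, Sln and Mybphl were detected in that culture alone and entered the count through it. Highest with 3 factors were 6 (Tnnc1, Mb, Myl3, Myl2, Cox7a1 and Actn2), highest in the vehicle culture were 3 (Gata4, Myl7 and Tnni1), and highest in the knockout culture were 2 (Cox6a2 and Fabp3). Neither the count of varying genes nor this tally was made over all genes, so the members have no baseline here.

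Actc1 had 4.88 (not detected) in the knockout culture, 8.45 at 12 h and 6.51 at 24 h of PDGF-BB, 7.37 in the control culture, 8.26 with 3 factors and 5.67 in the vehicle culture. Myl2 had 5.82 in the knockout culture, 6.52 at 12 h and 7.62 at 24 h of PDGF-BB, 8.37 in the control culture, 8.70 with 3 factors and 7.21 in the vehicle culture. Both were lowest in the knockout culture, and they parted with PDGF-BB at 12 h, where Actc1 was at its highest.

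Myh6 had 4.47 (not detected) in the knockout culture, 6.63 at 12 h and 5.25 (not detected) at 24 h of PDGF-BB, 5.71 in the control culture, 5.78 with 3 factors and 4.45 (not detected) in the vehicle culture. Tnni1 had 6.24 in the knockout culture, 7.25 at 12 h and 7.59 at 24 h of PDGF-BB, 6.86 in the control culture, 7.05 with 3 factors and 7.93 in the vehicle culture. Tnni1, the slow form that the embryonic heart also makes, was highest in the vehicle culture, where Myh6 was not detected.

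Myl7 had 11.91 in the knockout culture, 11.43 at 12 h and 11.68 at 24 h of PDGF-BB, 11.68 in the control culture, 10.69 with 3 factors and 11.98 in the vehicle culture. Atp2a2 had 9.80 in the knockout culture, 10.27 at 12 h and 10.15 at 24 h of PDGF-BB, 9.98 in the control culture, 9.75 with 3 factors and 10.35 in the vehicle culture. Gata4 had 5.68 in the knockout culture, 5.29 at 12 h and 5.61 at 24 h of PDGF-BB, 5.61 in the control culture, 5.45 (not detected) with 3 factors and 6.55 in the vehicle culture. These 3 genes were lower with 3 factors than in the vehicle culture, Atp2a2 by less than the size of a call.

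Myl3 had 5.05 (not detected) in the knockout culture, 5.87 at 12 h and 6.23 at 24 h of PDGF-BB, 7.36 in the control culture, 7.79 with 3 factors and 5.85 in the vehicle culture. Actn2 had 4.99 (not detected) in the knockout culture, 6.76 at 12 h and 5.97 at 24 h of PDGF-BB, 6.79 in the control culture, 6.93 with 3 factors and 4.52 (not detected) in the vehicle culture. Tnnc1 had 7.37 in the knockout culture, 8.48 at 12 h and 7.46 at 24 h of PDGF-BB, 7.74 in the control culture, 8.65 with 3 factors and 7.55 in the vehicle culture. All 3 were highest with 3 factors, and Myl3 was lowest in the knockout culture.

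Hspb7 had 7.18 in the knockout culture, 8.99 at 12 h and 8.89 at 24 h of PDGF-BB, 8.33 in the control culture, 5.45 (not detected) with 3 factors and 8.18 in the vehicle culture. Cox6a2 had 9.43 in the knockout culture, 8.71 at 12 h and 8.46 at 24 h of PDGF-BB, 8.30 in the control culture, 7.02 with 3 factors and 9.03 in the vehicle culture. Fabp3 had 10.48 in the knockout culture, 9.53 at 12 h and 9.57 at 24 h of PDGF-BB, 9.38 in the control culture, 9.03 with 3 factors and 10.27 in the vehicle culture. The chaperone and both energy genes were lowest with 3 factors.

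Mb, the oxygen store myoglobin, had 5.28 in the knockout culture, 5.14 (not detected) at 12 h and 5.37 at 24 h of PDGF-BB, 5.77 in the control culture, 6.13 with 3 factors and 4.53 (not detected) in the vehicle culture. Cox7a1, another muscle subunit of cytochrome oxidase, had 7.26 in the knockout culture, 7.0031 at 12 h and 6.97 at 24 h of PDGF-BB, 6.92 in the control culture, 8.01 with 3 factors and 8.0024 in the vehicle culture. Csrp3 had 4.60 (not detected) in the knockout culture, 6.80 at 12 h and 5.0041 (not detected) at 24 h of PDGF-BB, 5.40 in the control culture, 5.10 (not detected) with 3 factors and 4.58 (not detected) in the vehicle culture. Mb and Cox7a1 were highest with 3 factors, and Csrp3 at 12 h.

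Some members were seen in 1 or 2 cultures near the limit of detection. Mybpc3, myosin binding protein C, was detected in the 12 h and control cultures and had 12.82 in knockout hearts and 12.94 in control hearts. Ldb3, a Z-disc protein, was detected at 24 h alone, and Tcap, the titin cap, at 12 h alone. Myoz2, a Z-disc partner of calcineurin, was detected in the knockout and 3-factor cultures. Culture levels without detection ran over 4.38 to 4.52 for Myh7, 4.44 to 4.99 for Tnni3, 4.35 to 4.82 for Ryr2 and 4.35 to 4.54 for Pln. Casq1 ran over 4.38 to 4.55 and Casq2 over 4.38 to 5.02.

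Knockout and control cultures were compared to ask which muscle genes differed in the culture labelled knockout. Of 21 measured members 6 fell and 2 rose, the median being -0.49 (-0.37 if bounds replace undetected values). Over 9765 measured genes 4.19% were called, 2.29% lower and 1.89% higher, with a median of 0.01. The falls were in 3 of 6 thick filament genes (Myl2, Myl3 and Myh6), 1 of 4 thin filament genes (Actc1), 1 of 4 Z-disc and M-band genes (Actn2) and the chaperone gene Hspb7. Both rises were among 4 energy genes.

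Myl2 fell by 2.55, to 5.82 in the knockout against 8.37 in the control culture. Actc1, Myl3, the Z-disc actinin Actn2 and Myh6 were not detected in the knockout culture. Against the control culture Actc1 was at least 4.32-fold lower, Myl3 at least 4.30-fold, Actn2 at least 2.89-fold and Myh6 at least 1.37-fold. Hspb7 fell by 1.14, to 7.18 in the knockout against 8.33 in the control culture. Myl4 and Myl7, known for the atria, were not called, with -0.54 and 0.23.

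Going up were Fabp3, with 10.48 in the knockout and 9.38 in the control culture (1.10), and Cox6a2, a muscle subunit of cytochrome oxidase, with 9.43 and 8.30 (1.13). In hearts neither gene was called between the genotypes. Of the further genes 3 of 21 measured fell and 0 rose, none of the 3 detected in the knockout culture. The light chain Myl1 was at least 1.47-fold lower, the transcription factor Tbx20 at least 2.58-fold and Nppa at least 7.84-fold.

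The untreated culture chosen mattered. The vehicle culture itself differed from the control culture: of 20 measured members 6 fell (Actc1, Myl2, Myl3, Myh6, Actn2 and Mb) and 2 rose (Tnni1 and Cox7a1), where 10.7% of all genes were called, 7.34% lower and 3.37% higher. The vehicle culture shares its distribution of processed values with the hearts. The highest non-normalized intensities in that set were 25863 to 27914, against 45002 to 53266 in the set of the control culture. The part of this in the result was not tested. Against the vehicle culture 3 members fell in the knockout culture, Myl2 (-1.39), Tnni1 (-1.70) and Hspb7 (-1.0004), where 5.81% of all genes fell, and 0 rose, where 9.01% did. Neither culture detected Actn2 or Myh6. Fabp3 then had a difference of 0.21 and Cox6a2 one of 0.40. With both untreated cultures as a group, limma found 0 of 10719 genes past an adjusted p of 0.05 (361 had an unadjusted p under 0.05). Among members Myl2 had -1.97 ± 0.58 (SE) and Hspb7 -1.07 ± 0.36, with an adjusted p of 0.99999 each in limma.

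Erythroid markers also differed between these arrays. Of 7 erythroid markers 1 was detected in the knockout culture and 4 in the control culture. The 1 was Alas2, higher in the knockout culture (6.10) than in the control (5.22) and vehicle cultures (4.64, not detected). The globins Hba-a1, Hba-x, Hbb-y and Hbb-bh1 were not detected in the knockout culture. Summed linear levels over the 7 markers were 226 in the knockout and 987 in the control culture. The vehicle culture, low in Actc1 and Myl3, held the most, 14876, with 4 of 7 detected. Macrophage markers were all detected in the 3 cultures, 7 of 7, with sums of 39352 in the knockout, 15448 in the control and 9822 in the vehicle culture, and 4 of 7 rose in the knockout over the control culture. Their part in the muscle result was not tested.

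Cultures given PDGF-BB alone, a ligand of both receptors, were compared with the control culture at 2 times after the heart had been removed. At 12 h the members went both ways: 5 of 23 measured rose and 2 fell, with a median of 0.29 (0.19 with bounds), where 0.568% of 9689 genes were called, 0.258% higher and 0.31% lower. Of the 23 members, Sln, Mybphl and Tcap were measured through the 12 h array alone. Those that rose are known mainly from the atria or from both chambers, and those that fell, Myl2 and Myl3, are the ventricular light chains. Of 5 members listed as atrial only 3 rose, and Myl2 and Myl3 were not called against the vehicle culture (-0.69 and 0.02).

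Sarcolipin, which restrains the calcium pump in the atria, was detected at 12 h alone among all 8 arrays, at 7.21, and was at least 4.13-fold above the control culture. Hearts had levels of 4.33 (knockout) and 4.75 (control) for this probe without detection. Myl4 had 7.93 in the knockout culture, 10.36 at 12 h and 8.42 at 24 h of PDGF-BB, 8.47 in the control culture, 7.04 with 3 factors and 8.09 in the vehicle culture. The 12 h culture was the brightest by more than 1 on the log2 scale (1.89 over the control culture), though with the mean of both Myl4 probes, the other of which neither culture detected, the difference was 0.93.

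Mybphl, an atrial relative of myosin binding protein, had 5.81 at 12 h and was detected in no other culture, at least 1.56-fold above the control culture. Myh6 had a difference of 0.92, short of a call. Myl7, the remaining member listed as atrial, had -0.24. Of the 3 listed as ventricular both measured ones fell, Myl2 by 1.85 and Myl3 by 1.49, and Myh7 was not measured.

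Genes of both chambers rose as well: Csrp3 by 1.40, with 0.30 for a further probe, and Actc1 by 1.08. Without background correction, with a fixed background or with the authors' processed values, Actc1, Mybphl and Csrp3 fell short of a call, while Sln and Myl4 remained called. Among the further genes 2 of 20 measured rose, Nppa (2.96) and Nppb (1.10), both also known as secreted peptides of the embryonic heart.

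At 24 h fewer members were called. Of 21 measured members 0 rose and 1 fell, Myl3 (-1.13), with a median of -0.00, where 1.23% of 9698 genes were called, 0.412% higher and 0.815% lower. Sln and Mybphl were not detected, Myl4 was at 8.42 against 8.47 in the control culture, and Nppa at 5.9983 against 8.23. The 12 h and 24 h cultures share the control array, so their 2 differences are not independent.

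Against the vehicle culture the 12 h culture had 7 members that rose, where 4.57% of all genes did: Actc1 (2.78), Myl4 (2.27) and 5 that the vehicle culture did not detect. Of these Sln was at least 3.48-fold higher, Csrp3 at least 2.62-fold, Actn2 at least 2.55-fold, Myh6 at least 2.32-fold and Mybphl at least 1.32-fold. Myl2 then had -0.69 and Myl3 0.02, so the ventricular chains were called lower only against the control culture. The 1 member that fell was Gata4 (-1.25), where 2.38% of all genes did. For the 24 h culture Actn2 rose against vehicle (at least 1.47-fold, not detected with vehicle), where 3.88% of all genes did, and Cox7a1 fell (-1.03), where 2.02% did. In limma's fit against both untreated cultures Sln, which neither of them detected, had a fitted difference of 2.88 ± 0.36 (SE) and Myl4 one of 2.08 ± 0.39, each with an adjusted p of 0.99995, and 0 of 10719 genes passed an adjusted p of 0.05 (23 had an unadjusted p under 0.05).

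Among markers of other cells at 12 h, 1 of 7 macrophage markers fell (Adgre1) and 1 of 6 measured fibroblast markers (Lum), and 0 of 4 erythroid, 4 endothelial, 5 smooth muscle and 7 epicardial markers measured were called. Summed linear levels in the 12 h and the control culture were 921 and 987 over 7 erythroid markers (4 detected in each, Hbb-bh1, Slc4a1 and Epb42 in neither), 13514 and 15448 over 7 macrophage markers, 768 and 906 over 8 endothelial markers, 40494 and 42450 over 7 smooth muscle markers, 23062 and 26361 over 7 fibroblast markers, and 26624 and 29960 over 8 epicardial markers. Their part in the result was not tested. Skeletal muscle markers were detected in no culture, 0 of 7.

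**Figure D4:**
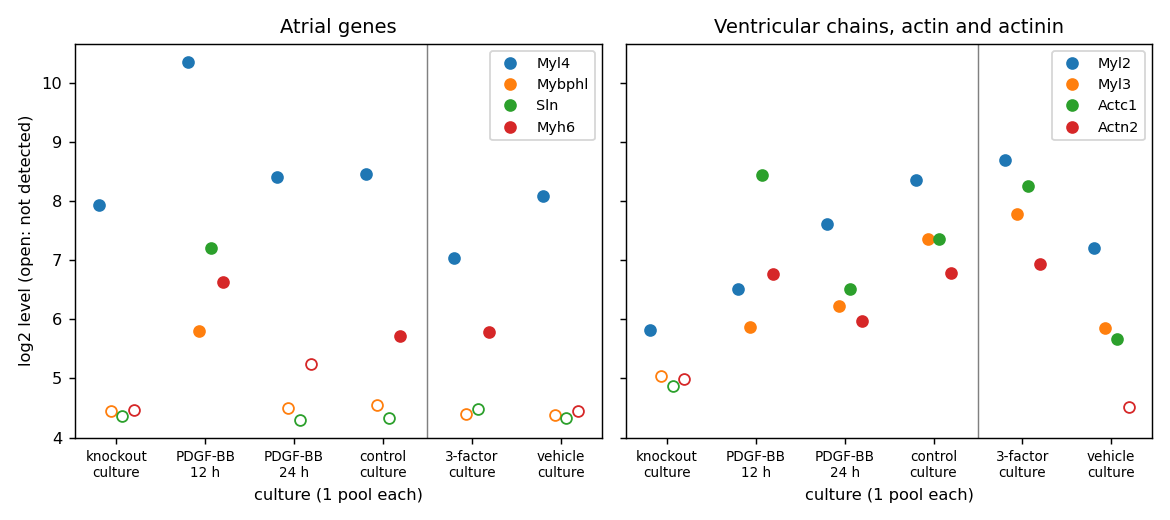
Log2 level (vertical axis) of 4 genes known from the atria, on the left, and of Myl2, Myl3, Actc1 and Actn2, on the right, in the 6 cultures (1 pool each). Myl7, also listed as atrial, is not drawn, and it had 11.43 at 12 h against 11.68 in the control culture. Filled points were detected and open points were not; the grey line parts the cultures compared with the control culture from those compared with the vehicle culture, and Sln and Mybphl are filled at 12 h alone.

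The 3 factors together were compared with vehicle, both given for 2 days. The members went both ways, also within a role: of 19 measured 7 rose and 6 fell, with a median of -0.09, where 10.4% of 9178 genes were called, 5.32% higher and 5.07% lower. Of 5 measured thick filament genes 3 rose (Myl2, Myl3 and Myh6) and 2 fell (Myl4 and Myl7). Of 4 thin filament genes 2 rose (Actc1 and Tnnc1), and of 3 Z-disc and M-band genes 1 rose (Actn2). Of 4 energy genes 1 rose (Mb) and 2 fell (Cox6a2 and Fabp3), and Gata4 and Hspb7 fell.

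Actc1 rose by 2.59, to 8.26 with 3 factors against 5.67 with vehicle. Myl3 rose by 1.94 and Myl2 by 1.49. Troponin C (Tnnc1) rose by 1.10. Actn2, myoglobin (Mb) and Myh6 were not detected with vehicle. With 3 factors Actn2 was at least 2.87-fold higher, Mb at least 1.65-fold and Myh6 at least 1.29-fold. Skeletal actin Acta1, one of the further genes and also a form of the embryonic heart, rose by 3.36, while Popdc2 (-1.19) and Pgam2 (-1.56) fell. Nppa was not detected with 3 factors and was at least 1.28-fold lower.

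Hspb7 was not detected with 3 factors and was at least 6.13-fold lower. Cox6a2 fell by 2.01, to 7.02 against 9.03 with vehicle, and Fabp3 by 1.24, to 9.03 against 10.27. These energy genes, which stood highest in the knockout culture, were thus lowest with 3 factors. Myl7 fell by 1.29 and Myl4 by 1.05. Gata4 was not detected with 3 factors and was at least 1.97-fold lower, a call lost with median centring, with no or a fixed background and with the authors' values.

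Set against the control culture, none of the members that rose over vehicle was called. The 1 member that rose was Cox7a1 (1.09), not called against vehicle, where 6.67% of all genes rose over the control culture. Those that fell were 3, Hspb7 (not detected, at least 6.77-fold lower), Myl4 (-1.43) and Cox6a2 (-1.28), where 10.2% of all genes fell. Actc1 then had a difference of 0.90, Myl3 of 0.43, Myl2 of 0.33, and Actn2 of 0.15. Hspb7 had a fitted difference of -2.81 ± 0.36 (SE) in limma's fit against both untreated cultures, with an adjusted p of 0.247, and Cox6a2 had -1.64 ± 0.46 with an adjusted p of 0.531. Limma called 0 of 10719 genes (734 had an unadjusted p under 0.05), and with median centring 101 genes, among them 1 member.

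Erythroid markers were detected in 0 of 7 cases with 3 factors and 4 of 7 with vehicle, with summed linear levels of 158 and 14876. Epicardial markers had sums of 5612 with 3 factors and 18745 with vehicle, with 7 of 8 detected in each, and 5 of 7 measured fell. Fibroblast markers had sums of 12193 and 23465, with 5 and 6 of 7 detected, and 4 of 6 measured fell. Macrophage markers had 18535 and 9822, with 7 of 7 detected in each, and 4 rose. Their part in the muscle result was not tested.

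**Figure D5:**
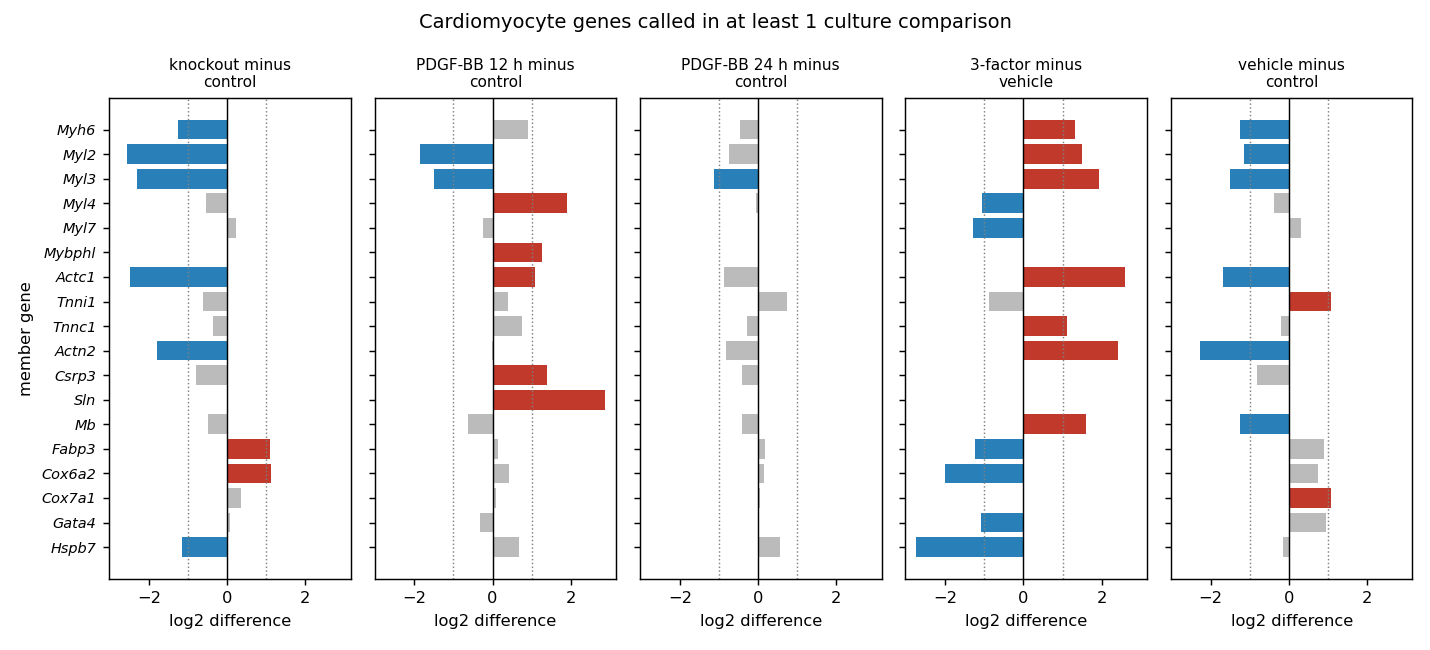
Log2 difference (horizontal axis) in 5 comparisons of 2 cultures each, for the 18 members called in at least 1 of them. Red bars were called higher, blue bars lower and grey bars neither; no bar means that the gene was not measured. Myl2 and Myl3 are blue in the knockout and 12 h panels and red with 3 factors.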

How the data were processed

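The authors exported a bead intensity and a detection p-value per probe and array with BeadStudio 3.3, per the submitters' processing notes and the file headers. The deposited intensity is non-normalized and above 0 on every array, which leaves its background in place. The processed intensity that the authors deposited, used as an alternative, had the same distribution within each of 2 sets of 4 arrays (hearts, 3-factor and vehicle cultures, and the remaining cultures), and the sources used here do not say how it was made. From the non-normalized values, limma 3.58.1 in R 4.3.3 (neqc, offset 16, background inferred from the detection p-values, quantile normalization of 8 arrays) gave log2 levels. GEO's platform annotation gave 1 symbol for 34885 of 45281 probes, several for 18 and none for 10378. Lists and counts used Python 3.11.15. Where the dimmer array detected no probe of a gene, its fold is a bound: the brighter level over that array's lowest detected level, or over the gene's own if higher. A summed linear level adds 2 to the power of the log2 level over a list. The limma fit (lmFit, eBayes, Benjamini-Hochberg over 10719 genes detected on at least 1 array) has 1 residual degree of freedom, so its spread is that between 2 pools. Scripts were tested on simulated data. Members and lists were chosen with earlier results of these data known. Values are given for 17 listed members (Tnnt2 without a probe), called members and the extremes of each group. The number of arrays limits the precision.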

Additional observations from a re-analysis of the deposited data

Results flagged for a closer look

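The knockout differed in sign between hearts and cultures for 6 members called in culture, a difference between 1 pair of arrays and another that was not tested. Actc1 had 0.10 in hearts and -2.49 in cultures, Myl2 had 0.11 and -2.55, Myl3 had 0.23 and -2.31, and Actn2 had 0.032 and -1.79. The knockout culture detected neither Actc1, Myl3 nor Actn2, so their culture values are set by background, and the bounds are 4.32-fold, 4.30-fold and 2.89-fold lower. Fabp3 had -0.27 in hearts and 1.10 in cultures, and Cox6a2 had -0.18 and 1.13. With PDGF-BB, 3 members had opposite signs at 12 h and 24 h against the control culture, also untested. Actc1 had 1.08 at 12 h and -0.86 at 24 h, and Myl4 had 1.89 and -0.0528. Csrp3 had 1.40 and -0.40, not detected at 24 h. None of these 24 h values was called. Against the vehicle culture the 24 h values were positive: 0.83 for Actc1, 0.33 for Myl4 and 0.43 for Csrp3, which neither array detected.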

How the results depend on the processing

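No paired analysis was possible because each group is 1 array. The falls between hearts and cultures kept their direction and call for every called member under every alternative run. Their median of -5.71 (control) was -5.03 without background correction, -4.81 with a fixed background, -5.21 with the mean of detected probes and -5.51 with the vehicle culture, chosen after seeing the data. That of -5.56 (knockout) was -4.90, -4.66 and -5.02 under the first 3 of these, and -5.78 with median centring. In the order no correction, fixed background, mean of probes, detection p under 0.05, authors' values, the median of -0.49 for the knockout culture was -0.31, -0.29, -0.37, -0.27 and -0.32. The count of 6 lower became 3 with a fixed background. At 12 h the 5 higher became 2 with no correction, a fixed background, the mean of probes or the authors' values, the 2 lower became 1 with a fixed background, and the median was 0.12 with detection p under 0.05. At 24 h the 1 lower became 0 with no correction, a fixed background or the authors' values. With 3 factors the 7 higher became 4 in those same settings. In the vehicle culture the 6 lower became 3 with no correction, 2 with a fixed background and 3 with the mean of probes, and the 2 higher became 0 in the first 2. Casq1 in hearts, the 1 higher, became 0 with the authors' values. Against the other untreated culture the knockout culture had 3 lower and 0 higher, 12 h had 1 lower, 24 h had 1 higher, and 3 factors had 1 higher, 3 lower and a median of 0.0678. There the sign was opposite for Myl3 at 12 h (0.0217) and 24 h (0.38). It was also opposite for Myh6 (0.0171) and Actn2 (0.47) in the knockout culture, but neither array detected these, so that sign is between background values. Limma with median centring, chosen after seeing the data, called 1690 in place of 1083 genes in knockout hearts, 1649 in place of 972 in control hearts, 5 in place of 0 in the knockout culture, and 101 genes with 1 member in place of 0 with 3 factors. The cause was not tested. Over the called members, 523 of the repeated values kept their call, 74 lost it and these 4 had the opposite sign.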
